A study of Heterocephalus glaber and Cavia porcellus and Spalacopus cyanus with 7 samples.

Results

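Histone chaperones and nucleoplasmins were followed through rodent oocytes as 10 listed genes: the nucleoplasmins *Npm1*, *Npm2* and *Npm3*, the histone H3 and H4 chaperones *Nasp*, *Asf1a* and *Asf1b*, the deposition factors *Chaf1a* and *Hira*, and the pair *Atrx* and *Daxx*. Genes were found by symbol without regard to case. In naked mole-rat, 7 of the 10 were found among 26623 entries under their symbol, and *Nasp* and *Hira* were found under a locus number whose gene ID carries that name in RefSeq, which gave 9. In guinea pig, 8 of the 10 were found among 25603 entries. *Atrx* was matched to no naked mole-rat entry and *Npm1* and *Hira* to no guinea pig entry, so these were not analysed there, and 7 genes could be set side by side between the species.

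The series holds RNA-seq of oocytes from 3 rodent species in 7 libraries, and no animal was treated or genetically altered. Guinea pig (*Cavia porcellus*) oocytes came from 3 females aged 6 to 9 months and were merged into 1 library. Naked mole-rat (*Heterocephalus glaber*) oocytes came from 5 females aged 1 to 8 years, with 1 library per female. Naked mole-rat replicates 4 and 5 carry the letter O and replicates 2 and 3 the letter Y in their labels, which the sources used here do not explain, and replicate 1 carries no letter. The coruro library, from 1 female aged 2 years, was counted over 3 *Dnmt3* sequences only and gives no value for these genes. All oocytes were fully grown or late in growth and were freed from cumulus cells by pipetting.

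Counts assigned to genes totalled 24515642 in guinea pig and 13512223 to 29561451 in the naked mole-rat libraries. Levels are counts per 1000000 assigned counts (CPM) and hold the effect of transcript length, so they are compared between samples for 1 gene. Between the species, a difference in annotated length stays in the comparison. Ranks among entries are ranks of reads and hold transcript length too. Of 28 oocyte markers, 21 of 22 with an entry reached 1 CPM in guinea pig and 20 of 23 in every naked mole-rat library. Replicate 1 stood apart from the other naked mole-rat libraries. Its 19 granulosa markers with an entry summed to 6414 CPM, against 1019 to 1926 CPM in replicates 2 to 5, and its oocyte markers to 5793 CPM, against 11082 to 13076 CPM. Replicate 1 was the highest library for 16 of the 19 granulosa markers and the lowest for 1, *Has2*. That gene held 130 CPM of the sum in replicate 1 and 227 to 464 CPM in replicates 2 to 5. In guinea pig the 18 granulosa markers with an entry summed to 794 CPM, with *Has2* at 1.14 CPM, and the oocyte markers to 14904 CPM. Its stroma markers summed to 386 CPM, against 4.77 to 216 CPM in naked mole-rat. Endothelial markers summed to 591 CPM in guinea pig, against 107 to 279 CPM, and immune markers to 11.9 CPM, against 5.43 to 114 CPM. Guinea pig was thus above every naked mole-rat library for the stroma and endothelial sums. Each order rests on a single gene, *Col3a1* with 228 CPM of the stroma sum and *Tek* with 450 CPM of the endothelial sum. In such bulk samples, fewer cells of a type and less RNA per cell cannot be told apart.

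Histones are highly basic and are escorted by chaperones from synthesis to DNA. NASP holds a reserve of H3 and H4, and ASF1 hands H3-H4 dimers to the CAF-1 complex, which contains CHAF1A and assembles nucleosomes behind the replication fork, or to the HIRA complex, which places the variant H3.3 without replication. DAXX with ATRX places H3.3 at telomeres and other heterochromatin. Nucleoplasmins are pentameric chaperones. NPM2 is the egg form, stored in the oocyte, and in mouse its loss disturbs nuclear organisation of oocytes and early embryos. NPM1 is a nucleolar protein of most cell types, and NPM3 is a smaller relative found with it.

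**Figure D1:**
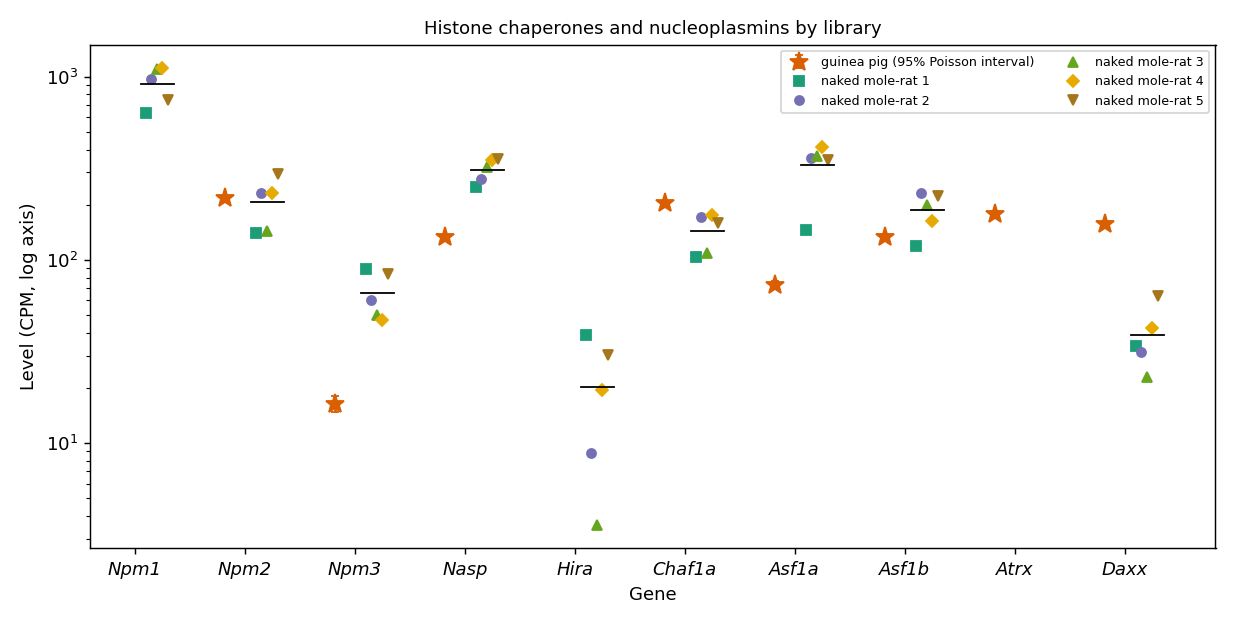
Level of each gene in CPM (log axis) in the guinea pig library (star, 95% Poisson interval) and in the 5 naked mole-rat libraries (symbols, with their mean as a line). *Daxx* in guinea pig (157 CPM) lies above every naked mole-rat library, *Asf1a* (73.0 CPM) and *Npm3* (16.3 CPM) lie below, and *Npm2* (217 CPM) lies within the range of 139 to 293 CPM. *Hira* is the most spread in naked mole-rat.

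The egg nucleoplasmin gene *Npm2* was expressed in every library and at similar CPM in both species. Guinea pig had 217 CPM (95% exact Poisson interval 212 to 223), from 5328 counts. Naked mole-rat replicates 1 to 5 had 139, 231, 143, 231 and 293 CPM, with a mean of 207 ± 65.5 CPM (SD, n = 5). The guinea pig value thus fell inside the naked mole-rat range, above replicates 1 and 3 and below the other 3 libraries. By counts, *Npm2* stood above 96.1% of the guinea pig entries and above 93.5 to 97.7% of the naked mole-rat entries. Over the 5 naked mole-rat libraries, the entries with the profile closest to *Npm2* were *Mrpl46*, *Vdr*, *Tnfsf9*, *Slc6a17* and *Cyth2*, at Euclidean distances of 0.13 to 0.18 in centred log2 CPM among 8008 named entries. This is a description of 5 libraries only.

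*Npm3*, by contrast, was lower in guinea pig than in any naked mole-rat library. It had 16.3 CPM in guinea pig (14.7 to 17.95), from 399 counts, against 88.7, 60.5, 50.2, 46.9 and 84.0 CPM in naked mole-rat replicates 1 to 5. Even the lowest naked mole-rat library exceeded guinea pig 2.88 times. Their mean was 66.1 ± 19.3 CPM (SD, n = 5), and the highest values stood in replicates 1 and 5.

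Within a library, the count ratio of *Npm2* to *Npm3* does not depend on the library total. It was 13.4 in guinea pig (95% exact interval 12.1 to 14.8) and 3.33 ± 1.24 in naked mole-rat (SD, n = 5), with 1.57, 3.82, 2.85, 4.92 and 3.49 in replicates 1 to 5. Guinea pig lay 2.71 times above the highest naked mole-rat library. The ratio holds the lengths of both transcripts as annotated in each species, which were not at hand, and 1 guinea pig library allows no test.

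*Npm1* was read deeply in naked mole-rat, where it ranked at place 81 of 26623 entries by mean CPM. Its levels in replicates 1 to 5 were 631, 967, 1100, 1122 and 746 CPM, with a mean of 913 ± 217 CPM (SD, n = 5). Replicates 1 and 5 were the lowest libraries for *Npm1* and the highest for *Npm3*. The count ratio of *Npm1* to *Npm3* was accordingly 7.11 and 8.88 in replicates 1 and 5 and 16.0, 21.9 and 23.9 in replicates 2, 3 and 4. That of *Npm2* to *Npm1* was 0.238 ± 0.0959 (SD, n = 5), from 0.130 in replicate 3 to 0.392 in replicate 5. How reads shared with copies elsewhere in the genome were counted is not given, and since *Npm1* has many processed copies in other mammals, its counts are uncertain to that extent. Without replicate 1 the mean of *Npm1* was 984 ± 173 CPM (SD, n = 4).

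*Nasp*, whose product keeps soluble H3 and H4 from degradation, was the steadiest of the 9 genes in naked mole-rat. Guinea pig had 132 CPM (128 to 137). Naked mole-rat replicates 1 to 5 had 249, 275, 321, 353 and 357 CPM, a mean of 311 ± 47.8 CPM (SD, n = 5). All 5 lay above guinea pig, the lowest by 1.88 times. The SD of log2 CPM was 0.23, and only 6.68% of the 8486 entries with at least 100 counts in every naked mole-rat library had a smaller one. Over the 9 genes the median of this SD was 0.42, and over the 8486 entries it was 0.49.

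The paralogs *Asf1a* and *Asf1b*, of which *Asf1b* is the form linked to proliferating cells, differed in the species contrast. *Asf1a* had 73.0 CPM in guinea pig (69.7 to 76.5), against 146, 358, 369, 413 and 351 CPM in naked mole-rat replicates 1 to 5. Replicate 1 lay far below the other naked mole-rat libraries, at 39.2% of their mean. The lowest naked mole-rat library stood at 2.002 times guinea pig, and without replicate 1 at 4.81 times. The mean was 328 ± 104 CPM (SD, n = 5) and 373 ± 27.8 CPM (SD, n = 4) without replicate 1. *Asf1b* had 134 CPM in guinea pig (129 to 139), against 119, 231, 200, 162 and 223 CPM in naked mole-rat, and only replicate 1 lay below guinea pig.

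The count ratio of *Asf1b* to *Asf1a* was 1.84 in guinea pig (1.73 to 1.95), so *Asf1b* took more of the reads there. In naked mole-rat it was 0.817, 0.645, 0.543, 0.392 and 0.634 in replicates 1 to 5, below 1 in each library. Guinea pig lay 2.25 times above the highest of these. The lengths of the transcripts stay in the ratio here as well.

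*Chaf1a*, the large subunit of CAF-1, was somewhat higher in guinea pig. Guinea pig had 204 CPM (198 to 209), against 104, 171, 109, 175 and 159 CPM in naked mole-rat replicates 1 to 5, with a mean of 143 ± 34.4 CPM (SD, n = 5). The distance to the highest naked mole-rat library was 1.16 times, less than the 1.69 times between the highest and lowest naked mole-rat libraries. Its partner in CAF-1, *Chaf1b*, had 38.0 CPM in guinea pig and 34.5 ± 5.89 CPM in naked mole-rat (SD, n = 5), within the range of 25.7 to 41.0 CPM. The partner shared with other complexes, *Rbbp4*, had 287 CPM in guinea pig and 660 ± 218 CPM in naked mole-rat (SD, n = 5), and every naked mole-rat library was higher. Of 14 genes of DNA replication and proliferation, 11 were above every naked mole-rat library in guinea pig and 1 was below, where the shares over all entries compared were 37.3% and 29%; their part in the *Chaf1a* difference was not tested.

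*Hira*, whose product places H3.3 independently of DNA replication, varied more than the other 8 genes in naked mole-rat. Replicates 1 to 5 had 39.1, 8.76, 3.55, 19.5 and 30.3 CPM, from 528, 239, 49, 547 and 895 counts. The mean was 20.2 ± 14.7 CPM (SD, n = 5), or 15.5 ± 11.9 CPM (SD, n = 4) without replicate 1. The highest library was 11.01 times the lowest, while for the other 8 genes this factor was 1.44 to 2.83. The SD of log2 CPM was 1.41. The count ratio of *Chaf1a* to *Hira* ranged from 2.66 in replicate 1 to 30.7 in replicate 3, 11.6 times apart.

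Other subunits of the HIRA complex, named here after their values were seen, did not all follow one profile. *Ubn1* had 74.8, 36.2, 32.4, 31.6 and 87.4 CPM in replicates 1 to 5, and *Cabin1* had 82.4, 51.9, 32.5, 28.7 and 73.9 CPM. Both, like *Hira* and *Npm3*, were higher in replicates 1 and 5 than in the other libraries. *Ubn2*, a paralog of *Ubn1*, had 101, 163, 181, 158 and 128 CPM and was lower there. The opposite order, with replicates 1 and 5 below the others, was seen for *Npm1* and *Asf1a*.

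Thus 2 of the 9 genes had replicates 1 and 5 both above the other libraries and 2 had both below. Among the 8486 entries with at least 100 counts in every library, 24.6% were ordered the first way and 24.2% the second, so these counts lie near the background. Replicates 1 and 5 also had the highest granulosa sums, 6414 and 1926 CPM, against 1019, 1174 and 1226 CPM in replicates 2, 3 and 4; the part of granulosa RNA in these profiles was not tested. Replicate 1 was the lowest library for 6 of the 9 genes, as it was for 33.9% of the 8486 entries, among which 8 of the 9 genes are counted and *Hira* is not. These were *Npm1*, *Npm2*, *Nasp*, *Chaf1a*, *Asf1a* and *Asf1b*.

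**Figure D2:**
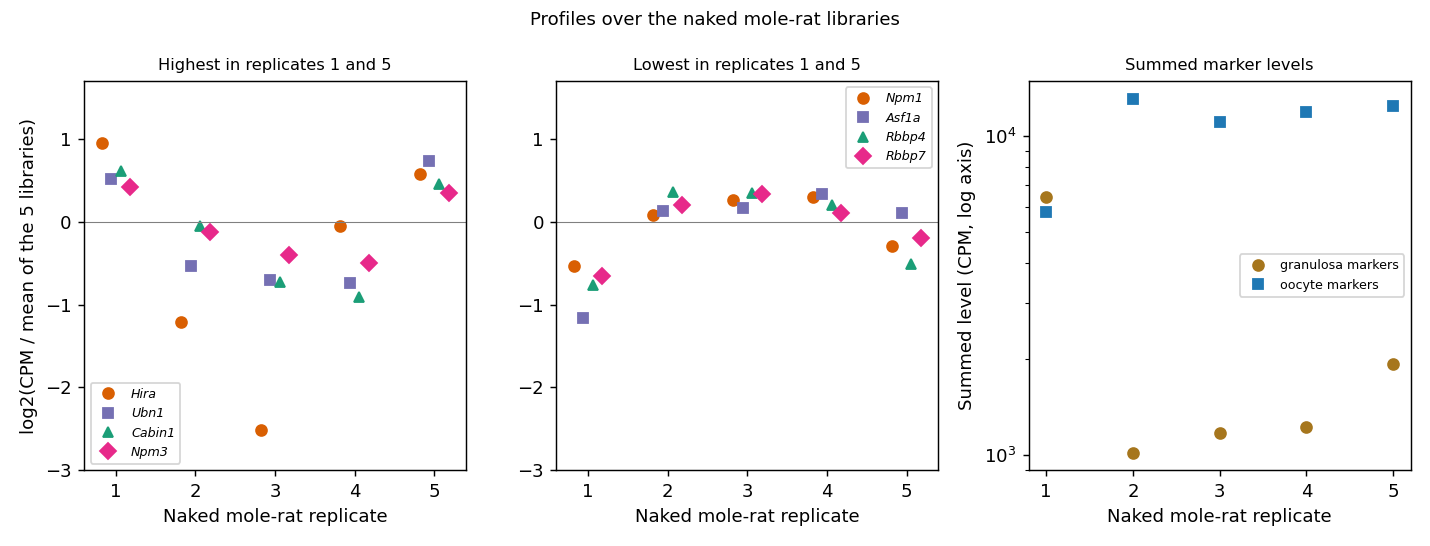
Levels in the 5 naked mole-rat libraries as log2 of CPM over the mean of the libraries (left and middle panels) and summed CPM of the granulosa and oocyte markers (right panel, log axis). *Hira*, *Ubn1*, *Cabin1* and *Npm3* are highest in replicates 1 and 5, where *Npm1*, *Asf1a*, *Rbbp4* and *Rbbp7* are lowest. The genes are shown for these orders, which 24.6% and 24.2% of 8486 entries had. *Ubn2*, not drawn, is lower in replicates 1 and 5. The granulosa sum is 6414 CPM in replicate 1 and 1926 CPM in replicate 5.

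*Daxx*, the H3.3 chaperone that works with ATRX, was higher in guinea pig than in any naked mole-rat library. Guinea pig had 157 CPM (152 to 162), from 3852 counts, against 34.0, 31.3, 23.0, 42.2 and 63.1 CPM in naked mole-rat replicates 1 to 5. The naked mole-rat mean was 38.7 ± 15.3 CPM (SD, n = 5), and guinea pig lay 2.49 times above the highest library. *Atrx*, the chromatin remodeller of the pair, had 178 CPM in guinea pig (173 to 184), from 4375 counts, and its count ratio to *Daxx* was 1.14 (1.09 to 1.19). This ratio also holds the lengths of both transcripts, so it does not tell whether the 2 mRNAs were equally abundant.

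Between the species, the 7 genes were placed against the spread of the naked mole-rat females. Guinea pig was above every naked mole-rat library for *Chaf1a* and *Daxx*, below every one for *Npm3*, *Nasp* and *Asf1a*, and within the range for *Npm2* and *Asf1b*. Entries of the same symbol were kept when guinea pig, or else all 5 naked mole-rat libraries, reached 100 counts. Of these 10363 entries, 37.3% were above every library and 29% below, so that 2 and 3 of 7 are not far from the background. At least 4 times above the highest library stood 9.04% of these entries and at least 4 times below the lowest 8.34%, and 0 of the 7 genes reached either. At 2 times, *Daxx* was past the limit as higher (18.7% of entries) and *Npm3* and *Asf1a* as lower (15.1%), *Asf1a* at 2.002 times. Without replicate 1, *Asf1a* was past 4 times as lower, as were 10.2% of 10461 entries, while the entries past 4 times as higher numbered 1443 (13.8%), against 937 with it. The position of all 7 genes was the same with totals over shared entries and with a median-of-ratios scaling. The median log2 ratio of guinea pig to the naked mole-rat mean was -0.48 over the 7 genes and 0.12 over the 10363 entries. With a single guinea pig library, intervals cover counting error only, and species, genome annotation, the mix of cells and library cannot be told apart.

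**Figure D3:**
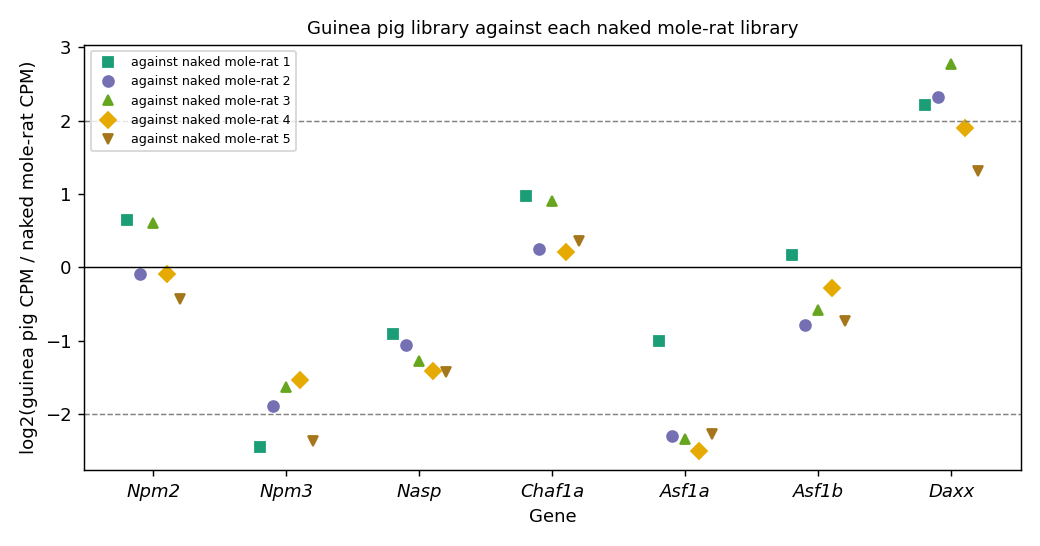
Log2 of guinea pig CPM over the CPM of each naked mole-rat library for the 7 genes matched in both species; dashed lines mark 4 times. All 5 symbols lie above 0 for *Daxx* and *Chaf1a* and below 0 for *Npm3*, *Nasp* and *Asf1a*, and for *Asf1a* replicate 1 stands apart from the other libraries.

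Libraries labelled O were compared with libraries labelled Y, 2 of each. Replicate 3, labelled Y, had the lowest total of these, 13809177 counts, against 27279716 to 29561451 in replicates 2, 4 and 5. The part of sequencing depth in the comparison was not tested. *Hira* had 19.5 and 30.3 CPM in O libraries, against 8.76 and 3.55 CPM in Y libraries, a log2 fold change of 1.87 ± 0.65 (SE; edgeR quasi-likelihood test, unadjusted p = 0.0126, Benjamini-Hochberg adjusted p = 1.00, and 0.113 to 1.00 over the alternatives). *Daxx* had 42.2 and 63.1 CPM in O libraries, against 31.3 and 23.0 CPM in Y libraries, with a log2 fold change of 0.82 ± 0.44 (SE; edgeR adjusted p = 1.00). For *Npm2* the difference was 0.36 (95% interval -0.38 to 1.09) and for *Nasp* 0.13 (-0.52 to 0.79). In these 4 genes both O libraries lay above both Y libraries in CPM, as in 23.4% of 15079 entries tested, and in 0 of the 9 did both lie below, as in 11.8%. With the TMM scaling of the test, an order examined after seeing the data, only *Hira* and *Daxx* kept both O libraries above (19.8% of entries), and *Asf1b* had both below (15.6%). For *Npm2* the libraries concerned, replicates 4 and 2, had 231.06 and 230.94 CPM, and 233 and 243 CPM after TMM scaling.

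No gene passed the adjusted threshold. Of the 15079 entries, edgeR called 0, or 0% (678 had an unadjusted p under 0.05), and DESeq2 called 72, with 0 of the 9 genes among them. Without replicate 4, *Npm1* alone of the 9 was called, as lower in O (log2 fold change -0.63, edgeR adjusted p = 0.0206, against 0.959 to 1.00 under the other alternatives), while 919 entries were called. The granulosa markers had a median log2 fold change of 1.19 over 18 tested, with 0 called, and their part in the values of *Hira* was not tested.

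**Figure D4:**
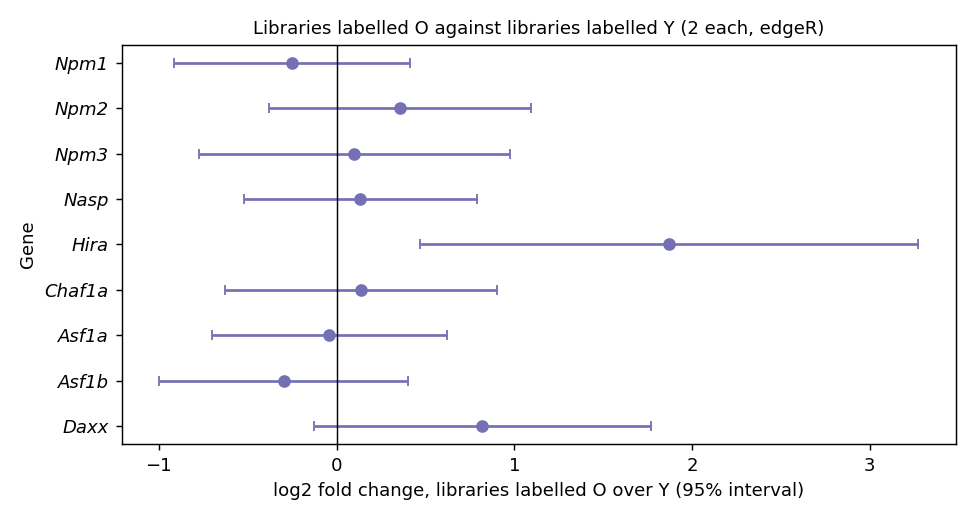
Log2 fold change of libraries labelled O over libraries labelled Y (edgeR, 2 libraries each) for 9 genes, with 95% intervals. The interval lies above 0 for *Hira* (0.47 to 3.27) and spans 0 for the other 8 genes; after adjustment over all entries no gene was called.

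Among 38 other listed histone chaperone genes, 36 had a naked mole-rat entry and 34 of these reached 1 CPM in every library. Of 35 that could be compared between species, guinea pig was past 4 times as higher for 1 and as lower for 2. The shares over all entries compared were 9.04% and 8.34%, so these counts are not far from the background. *Oip5*, which helps to load the centromeric histone CENP-A, had 45.7 CPM in guinea pig, against 1.81 to 11.2 CPM in naked mole-rat. It was compared only because guinea pig passed the count minimum, with 1120 counts, since naked mole-rat replicate 3 had 25. *Tspyl1* and *Tspyl4*, relatives of the nucleosome assembly proteins, had 20.9 and 6.36 CPM in guinea pig, against 96.1 to 130 and 38.0 to 68.8 CPM in naked mole-rat. The remaining genes of highest mean level in naked mole-rat were *Rbbp4*, given above, *Ncl*, *Rbbp7*, *Supt6h* and *Nap1l1*. *Rbbp7*, a partner of the acetyltransferase HAT1, had 79.3 CPM in guinea pig and 497 ± 123 CPM in naked mole-rat (SD, n = 5), where the lowest library was just under 4 times the guinea pig level, at 3.997 times. *Nap1l1*, a carrier of H2A and H2B, had 359 CPM in guinea pig and 246 ± 66.7 CPM in naked mole-rat. *Ncl*, which encodes nucleolin, had 335 CPM in guinea pig and 593 ± 136 CPM in naked mole-rat (SD, n = 5). The elongation factor *Supt6h* had 92.6 CPM in guinea pig and 268 ± 45.1 CPM in naked mole-rat (SD, n = 5). The median log2 ratio over the 35 genes was 0.01. By letter, 0 of 35 tested were called.

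The histones that these chaperones carry could be followed in naked mole-rat. The list of 12 genes also holds *Slbp*, which is not a histone gene. Of the 12, 11 had an entry and all 11 reached 1 CPM in every library. The oocyte linker histone gene *H1-8* had 709 ± 124 CPM (SD, n = 5). *H3-3b* and *H3-3a*, which encode the H3.3 variant that HIRA and DAXX place, had 564 ± 105 and 117 ± 35.3 CPM (SD, n = 5). Replicate 1 was the highest library for *H3-3b*, at 720 CPM against 460 to 620 CPM elsewhere, and for *H3-3a*, at 178 CPM against 92.1 to 114 CPM. The same held for *H2az1*, at 159 CPM against 41.8 to 63.4 CPM, with a mean of 73.9 ± 47.9 CPM (SD, n = 5). *Slbp*, which binds the stem-loop of replication-dependent histone mRNAs, had 465 CPM in guinea pig and 342 ± 87.1 CPM in naked mole-rat (SD, n = 5). It went the other way in replicate 1, which at 209 CPM was the lowest library. Replicate 1 was also the lowest library for *H1-8*, at 607 CPM against 649 to 917 CPM elsewhere.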

How the data were processed

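RNA of oocytes was measured in 7 libraries, of which 6 were used. The authors depleted ribosomal RNA, made directional libraries, trimmed reads with Trim Galore (0.6.1 in the submitters' processing notes), mapped them with HISAT2 (2.1.0 in the notes; the study's methods name other versions of both tools) to Cavpor3.0 or HetGla_female_1.0 and deposited raw counts per gene from SeqMonk. Naked mole-rat replicate 1 stood in a table of its own. The sources used here give neither annotation, transcript lengths nor how strand and multiply mapped reads were counted. Groups came from the labels. Of 10737 naked mole-rat locus entries, 557 took a symbol from RefSeq by gene ID; entries with date-like or repeated symbols were not matched. Without lengths, the ratios of 2 genes stayed count ratios and were not tested. CPM used plain totals. O and Y libraries were compared with edgeR 4.0.16 (TMM, filterByExpr, quasi-likelihood, adjusted p threshold 0.05) in R 4.3.3, and with DESeq2 1.42.0. The edgeR fit was also run on simulated data, with a pass mark only at a dispersion (variation between libraries beyond counting) of 0.05. The dispersion of these data was 0.452, so that pass mark does not tell how many true differences the test would find here. An SE is the log2 fold change divided by the root of F. No naked mole-rat libraries were duplicates (chi-square per gene 48.6 to 490 over 10 pairs). The labels do not say what else the females shared, so p-values measure the spread between these libraries. Members and gene lists were chosen with earlier results of these data known. Named genes were the 10 members, listed chaperones called between species or letters, the 5 of highest mean in the chaperone and histone lists, and the 5 closest to *Npm2*; and of each marker list the gene of highest mean CPM over the 5 naked mole-rat libraries and those that stood apart in 1 library. *Ubn1*, *Ubn2*, *Cabin1*, *Chaf1b*, *H2ax* and *Macroh2a1* were named after their values were seen. The result of 1 listed histone gene is not reported here. The guinea pig intervals cover counting error only. They may be too narrow even for that, since reads without molecular identifiers are not independent molecules. The intervals for O over Y come from the edgeR fit and hold the spread between libraries.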

Additional observations from a re-analysis of the deposited data

Results flagged for a closer look

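Among 14 values compared over the 5 naked mole-rat libraries, 9 gene levels and 5 count ratios, 1 had a library far from the others: *Asf1a* in replicate 1, with 146 CPM against 351 to 413 CPM. Its gap to the nearest library, divided by the range of the 5, was 0.768. Chance gives about 1 in 20 such values for independent, normally distributed levels, and the share over all entries is not given here. The granulosa sum was highest and the oocyte sum lowest in the same library, 6414 and 5793 CPM, and their part was not tested.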

How the results depend on the processing

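The mean CPM of the 9 genes in naked mole-rat moved by less than 1 SD under other totals and without any 1 replicate, as did 5 count ratios without any 1 replicate and the 7 log2 ratios of guinea pig to naked mole-rat under other scalings and without any 1 replicate. The number of the 7 genes past the limit between species was 0, but 3 at 2 times, and 0 to 1 without 1 replicate (*Asf1a*, without replicate 1). Over all entries it was 1801, but 3501 at 2 times, 3488 without a count minimum and 2512 without replicate 1 (1443 higher and 1069 lower). Matching by the files' symbols only, chosen after seeing the data, gave 1778. Between letters, edgeR called 0 entries, or 71 without the filter on low counts (69 higher and 2 lower in O), DESeq2 72, and edgeR 21 to 919 without 1 replicate, where a letter with a single library was assumed to vary like the other. The cause was not tested. With the number after the letter as replicate block, edgeR called 55; the deviations of same-numbered libraries correlated at 0.04 over 2 pairs, and no label ties them beyond the number. After TMM scaling, 2 of the 9 genes in place of 4 had both O libraries above both Y libraries, and 1 in place of 0 had both below. Without 1 replicate, the log2 fold change turned sign for *Npm1* (-0.63 to 0.068), *Npm3* (-0.29 to 0.44), *Chaf1a* (-0.16 to 0.51) and *Asf1a* (-0.21 to 0.13). No coding lengths were at hand, so the planned length correction was not run. Of the 9 genes, 8 reached 10 CPM in every naked mole-rat library, *Hira* being the exception. Between the species no paired analysis was possible because guinea pig has 1 library.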

Other observations

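Of 80 marker and replication genes compared over the 5 naked mole-rat libraries, 28 had 1 library far from the others, 25 of them replicate 1. It was highest for the granulosa genes *Amh*, *Amhr2*, *Inha*, *Inhba*, *Inhbb*, *Fshr*, *Gja1*, *Esr2*, *Hsd17b1*, *Nr5a1* and *Cyp11a1*, for *Col1a1*, *Col1a2* and *Col3a1*, for *Cd74*, *C1qb*, *Cd68* and *Laptm5*, and for *Egfl7*, *Tyms*, *Tle6* and *Zbed3*, and lowest for *Dppa3*, *Cpeb1* and *Ybx2*. The other 3 were *Mfap4*, highest in replicate 5, *Pecam1*, highest in replicate 3, and *Vwf*, highest in replicate 4. Chance flags about 1 in 20 for independent, normally distributed levels, and the share over all entries is not given here. Some of these genes rest on few reads. In replicate 1, *Tle6* had 5 counts, *Laptm5* 8, *C1qb* 11 and *Cd68* 13. Among the histone genes, *H3-3a*, *H2az1*, *H2ax* and *Macroh2a1* stood apart as highest there. Of the 36 other chaperone genes this library was highest for 11 and lowest for 14, and over 8486 entries it was highest for 32.5% and lowest for 33.9%. The granulosa gene *Serpine2* had 217 CPM in guinea pig and 448 ± 554 CPM in naked mole-rat (SD, n = 5), or 214 ± 208 CPM (SD, n = 4) without replicate 1. The oocyte gene *Bmp15* had 857 CPM in guinea pig and 1096 to 2970 CPM in naked mole-rat, and the endothelial gene *Tek* 450 CPM in guinea pig and 37.7 to 159 CPM in naked mole-rat.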
